A study of Homo sapiens with 6 samples.

Results

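The tubulin genes of HEK293T cells were followed across 6 arrays of cells arrested in prometaphase by a drug that depolymerizes microtubules. Members were chosen by name: every row of the non-normalized table whose gene symbol equalled 1 of 10 listed tubulin symbols was taken. The rule itself uses no measured value, but the list was drawn up with earlier results of these data known. All 10 were found among the 37879 rows of the table, 4 for alpha-tubulins (TUBA1A, TUBA1B, TUBA1C and TUBA4A) and 6 for beta-tubulins (TUBB, TUBB2A, TUBB2B, TUBB2C, TUBB3 and TUBB6). TUBB2C is the older symbol of the gene that RefSeq lists as TUBB4B. With the FLAG-tagged Staufen1 (Stau1) plasmid, none of the 10 transcripts differed from the empty vector past the test's threshold. The fitted changes lay between -0.17 and 0.14 on the log2 scale.

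HEK293T is a human embryonic kidney line that carries the SV40 large T antigen, and transfected DNA is expressed in it transiently. The 3 control samples had been transfected with empty vector and the 3 Stau1 samples with a plasmid for Stau155-FLAG, the 55-kDa isoform of the double-stranded RNA-binding protein Stau1. All 6 samples had received nocodazole at 50 ng/ml, for 15 h by the labels (a longer time is given in the methods of the study), and were labelled as prometaphase cells. Total RNA was read on an Illumina HumanWG-6 v3 BeadChip. Because both groups carried the drug, the comparison gives only the difference between Stau1 and empty-vector samples within arrested cells. The plasmid and any difference in how the groups were handled cannot be told apart. The effect of nocodazole itself on tubulin transcripts could not be measured from these 6 arrays. The labels do not say whether replicates came from separate cultures, so each p-value measures only the spread between these samples, which may be technical.

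Microtubules are polymers of heterodimers of alpha-tubulin and beta-tubulin, and in mitosis they form the spindle that carries the chromosomes. Nocodazole binds beta-tubulin and prevents polymerization, so that soluble dimers accumulate. Cells are known to answer an excess of soluble dimers by degrading tubulin mRNAs while they are translated: TTC5 recognizes the first residues of the emerging tubulin chain on the ribosome, and through SCAPER the CCR4-NOT deadenylase is recruited to the mRNA. This feedback, tubulin autoregulation, acts on alpha- and beta-tubulin mRNAs alike.

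Of the members, TUBA1A, TUBA1B and TUBA1C are neighbours on chromosome 12, and TUBB2A and TUBB2B are neighbours on chromosome 6 with nearly the same coding sequence. The sequences just upstream of the transcription starts of these 5 genes are printed because within-array ratios inside the groups of neighbours are compared further on. RefSeq lists 3 starts for TUBA1C, of which the 1 with TATA in its window is printed, and 1 start for each of the others. They are RefSeq sequences on GRCh38.p14, the 45 bases before the start, read 5′ to 3′ on the strand of the gene, with capitals on TATA (the letters TATA, which read the same on both strands) where it lies wholly between 40 and 20 bases before the start.
TUBB2A, chr6:3157545-3157589, minus strand: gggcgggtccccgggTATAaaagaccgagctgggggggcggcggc
TUBB2B, chr6:3227654-3227698, minus strand: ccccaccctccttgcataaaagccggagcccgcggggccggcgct
TUBA1A, chr12:49189081-49189125, minus strand: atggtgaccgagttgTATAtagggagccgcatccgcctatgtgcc
TUBA1B, chr12:49131396-49131440, minus strand: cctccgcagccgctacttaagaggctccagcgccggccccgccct
TUBA1C, chr12:49265037-49265081, plus strand: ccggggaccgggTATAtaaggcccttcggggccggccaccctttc

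All 10 members matched the RefSeq promoter table, which held 15 transcription starts for them. TATA lay in the window before 6 of the 15 starts (40%), 1 each in TUBA1A, TUBA1C, TUBA4A, TUBB2A, TUBB2C and TUBB3, against 5.96% of 35116 starts in the whole table. CCAAT, on either strand in the 250 bases before the start, stood before 9 of the 15 starts (60%), in 7 members, against 32% of all starts. The windows of some TUBA1C starts overlap, so starts are not independent of each other. These matches describe letters only, and no array value was read from promoters.

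The arrays differed in brightness before normalization. Between 12730 and 13469 rows were detected per array, a row being detected where its intensity exceeded the negative control beads with a detection p under 0.05. The median raw intensity over all rows went from 82.96 on the array of Stau1 replicate 1 to 102.2 on that of control replicate 3. The HEK293T markers NEFL, NEFM, KRT8 and KRT18 and the mitotic genes CCNB1, PLK1, CDC20, AURKA and BUB1 were detected on all 6 arrays, and the kidney factor PAX2 on 1. Of the markers of other cells reported here, PTPRC, CD3E, HBB, CDH5, VWF, COL3A1 and DCN were detected on no array, while PECAM1 and COL1A1 were detected on all 6, COL1A1 at raw intensities from 100.8 to 134.9. KRT8, a keratin, differed by -0.61 (SE 0.17, limma adjusted p = 0.999) with groups that did not overlap, and its part in the tubulin values was not tested. The mitotic genes differed by -0.10 to 0.08 between the groups. STAU1, the gene carried by the plasmid, read 11.31 ± 0.10 in the control samples and 11.46 ± 0.06 in the Stau1 samples (log2 normalized intensity, SD, n = 3), a change of 0.15 (SE 0.09, limma adjusted p = 0.999). The array values were 11.19, 11.38 and 11.36 against 11.39, 11.51 and 11.47, so the groups did not overlap, but the nearest arrays of the groups differed only in the last of these decimals. Which part of the STAU1 transcript its probe reads, and whether the plasmid carries that part, were not analysed here.

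The 10 members were detected on all 6 arrays and passed the filter on dim rows, as did 13285 rows in all. For 7 of them the detection p was listed as 0 on every array. The exception at the low end was TUBA4A, which had raw intensities of 124.4, 111.3 and 172.9 in the control samples and 122.1, 128.5 and 137.9 in the Stau1 samples, with a highest detection p of 0.029. Its values thus lie just above background and its level is the least certain of the 10. Judged by bead counts and detection p-values, 6 of the 10 rows behave as single probes. The rows of TUBA1A, TUBB, TUBB2A and TUBB6 behave as means over several probes. No probe annotation was used to check this. Brightness depends on the probe, so levels are compared between arrays for the same gene and never between genes. All values below are log2 intensities after background correction and quantile normalization, given for replicates 1, 2 and 3 in that order.

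Among the alpha-tubulins, TUBA1B, which is expressed in nearly every cell type, had the narrowest spread across the arrays after normalization. It read 14.96, 14.99 and 15.05 in the control samples and 14.98, 14.93 and 14.99 in the Stau1 samples, which gives means of 15.00 ± 0.05 and 14.97 ± 0.03 (SD, n = 3). The groups overlapped, and the fitted change of -0.04 had a 95% confidence interval from -0.17 to 0.10. Before normalization the same row read between 27354 and 38618. TUBA1C, another broadly expressed alpha-tubulin, read 14.31, 14.13 and 14.15 in the control samples and 14.17, 14.30 and 14.37 with Stau1. The change was 0.08 (SE 0.08), and the array of control replicate 1 lay among the Stau1 values.

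TUBA1A, the main alpha-tubulin of developing neurons, had 1 array apart from the rest. It read 13.52, 13.14 and 13.17 in the control samples against 13.21, 13.20 and 13.37 with Stau1, so control replicate 1 was the highest of all and the other control arrays were the lowest. The means of 13.27 ± 0.21 and 13.26 ± 0.10 (SD, n = 3) differed by -0.01 (SE 0.10), and without control replicate 1 the change was 0.11. TUBA4A, an alpha-tubulin whose gene does not encode the terminal tyrosine that other alpha-tubulins carry, read 6.11, 5.65 and 6.33 against 6.03, 5.68 and 5.87. All 3 Stau1 values lay within the range of the control values. Its change of -0.17 (SE 0.18) was the lowest of the 10 members and had the widest confidence interval, from -0.56 to 0.22. It was -0.36 without control replicate 2 and -0.02 without control replicate 3, where it was no longer the lowest.

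**Figure D1:**
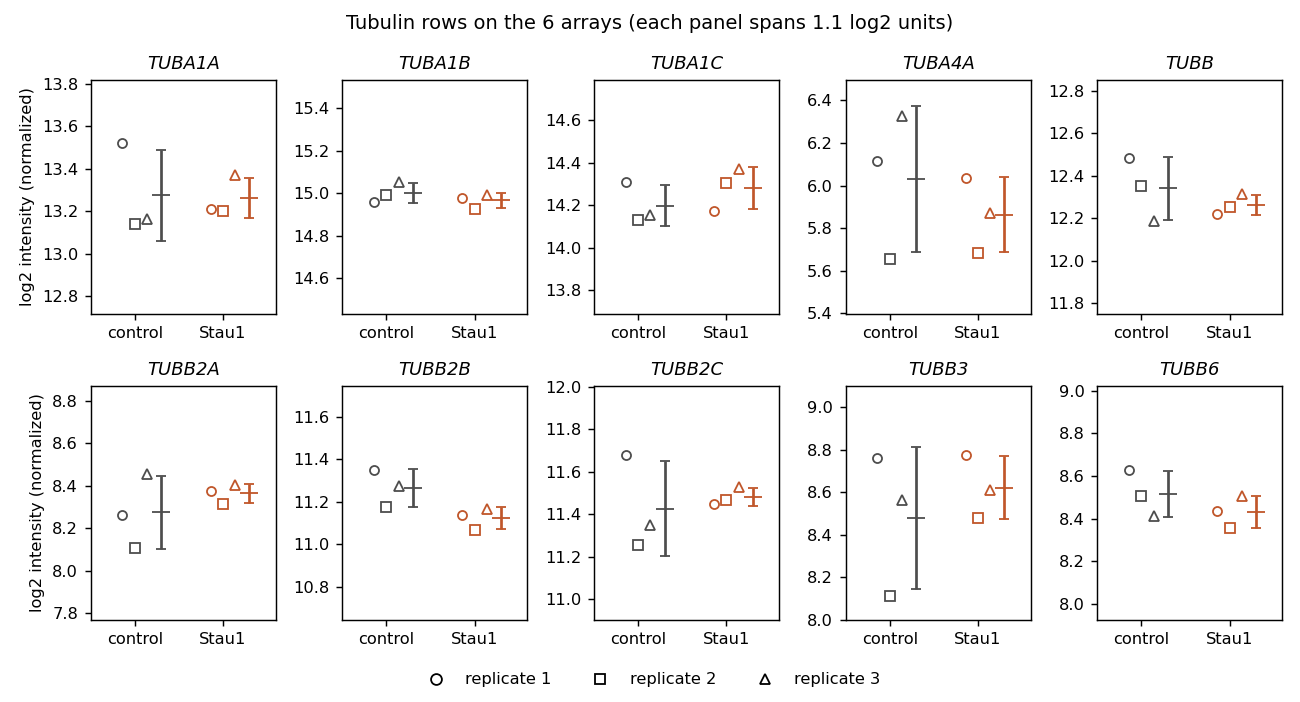
Log2 normalized intensity of the 10 tubulin genes on each array, 1 panel per gene, with the 3 control and the 3 Stau1 samples as points and the group mean ± SD beside them. The groups overlap for every gene except TUBB2B, where the Stau1 values from 11.06 to 11.17 lie just under the control values from 11.17 to 11.35.

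TUBB, the class I beta-tubulin found in most cells, read 12.48, 12.35 and 12.19 in the control samples and 12.22, 12.25 and 12.31 in the Stau1 samples. The Stau1 values fell inside the control range, and the change was -0.08 (SE 0.09). TUBB2C, a class IV beta-tubulin of many tissues and of cilia, read 11.68, 11.25 and 11.35 against 11.45, 11.47 and 11.53. Here too the control samples held both the highest and the lowest array, and the change was 0.05 (SE 0.11). TUBB6, the class V beta-tubulin, read 8.63, 8.50 and 8.41 against 8.43, 8.36 and 8.51, a change of -0.08 (SE 0.13) with overlapping groups.

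TUBB2B, a class II beta-tubulin prominent in the developing brain, was the only member whose groups did not overlap. It read 11.35, 11.17 and 11.28 in the control samples and 11.14, 11.06 and 11.17 with Stau1. The means were 11.27 ± 0.09 and 11.12 ± 0.05 (SD, n = 3), a change of -0.14 (SE 0.09, limma adjusted p = 0.999), or 0.906 times the control intensity. The 95% confidence interval ran from -0.34 to 0.06, and the lowest control array and the highest Stau1 array were equal to 2 decimals. In an exact two-sided permutation test of this single gene p was 0.1, the smallest that 3 samples against 3 can give. Raw intensities, 2119, 2206 and 3178 in the control samples and 2172, 2424 and 2549 with Stau1, overlapped.

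The neighbouring TUBB2A, the other class II beta-tubulin, read 8.26, 8.11 and 8.45 in the control samples and 8.38, 8.31 and 8.40 with Stau1. Its change was 0.09 (SE 0.14), with the Stau1 values inside the control range. TUBB3, the class III beta-tubulin used as a marker of neurons, read 8.76, 8.11 and 8.56 against 8.77, 8.48 and 8.61. It had the highest change of the 10, 0.14 (SE 0.17, 95% confidence interval -0.22 to 0.50), and its control replicate 2 stood well under the other 5 arrays. Without that array the change was -0.04.

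**Figure D2:**
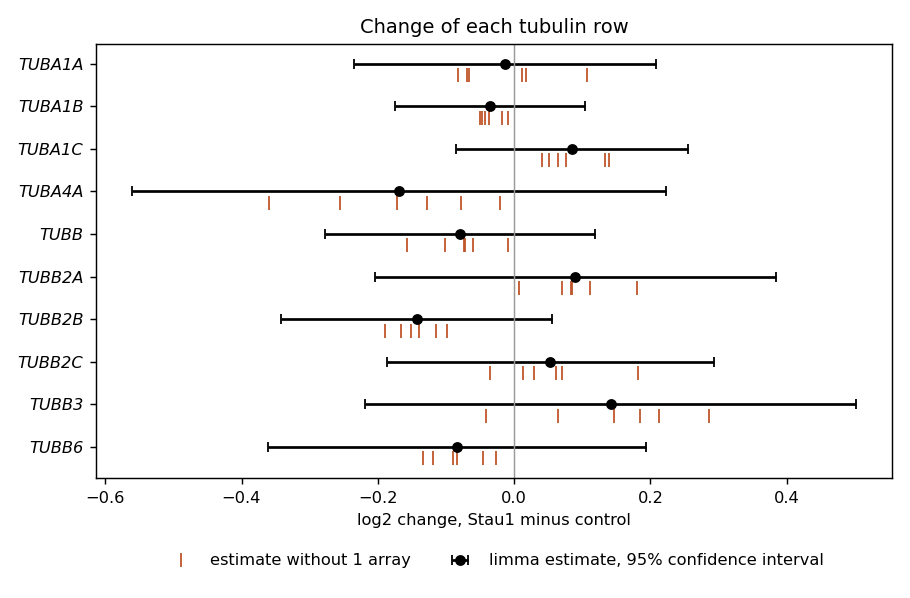
Fitted log2 change (Stau1 minus control) of each tubulin gene as a point, with its 95% confidence interval as a line, and the estimates with 1 array left out as ticks under it. Every interval crosses 0, and the widest, that of TUBA4A, runs from -0.56 to 0.22.

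Of the 10 members, 4 had a positive change (40%), as had 49.4% of the 13285 rows kept. Their median change was -0.02 and that of all kept rows was 0.00 to 2 decimals (-0.00206). The 4 alpha-tubulins had a median of -0.02 and a range from -0.17 to 0.08, and the 6 beta-tubulins a median of -0.01 and a range from -0.14 to 0.14. In limma, 0 of the 10 passed an adjusted p of 0.05, a threshold that 0% of all kept rows (0 of 13285) passed. At an unadjusted p under 0.05 the count was 0 of 10, beside 3.73% of all kept rows (495). The methods' t-test, run here as two-sided with equal variances, which the methods do not specify, also gave 0 members before adjustment and 464 of all kept rows, of which 0 remained once adjusted by Benjamini-Hochberg. Groups did not overlap for 1 member (10%), TUBB2B, and for 7.91% of all kept rows (1051), so the share among the tubulins is near that of the table as a whole.

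These counts do not show that the levels were equal. The confidence interval of TUBA1B left room for between 0.886 and 1.08 times the control intensity, that of TUBA1C for 0.942 to 1.19 times, and that of TUBA1A for 0.85 to 1.16 times. A change of 2-fold in normalized intensity lay outside the interval of each of the 10 in the main fit. The limits depend on the processing. With median scaling the SE was 0.157 for TUBA1B and 0.165 for TUBA1C, against 0.065 and 0.079 in the main fit. The dimmer rows were measured less tightly: TUBB3 could lie between 0.86 and 1.42 times the control and TUBA4A between 0.678 and 1.17 times. With background inferred from all rows TUBA4A was at -0.0105 (SE 0.0107), so for this row just above background the limits do not bound the transcript itself. For the others the limits hold at most for a transcript's share of total RNA. They were taken after quantile normalization, which sets the whole distribution of intensities equal on every array. In RNA of a whole culture, fewer cells that express a gene and less RNA per cell cannot be told apart.

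To see whether the same arrays were high or low for many members, each gene was centred on its own mean over the 6 arrays, and the deviations were then read by array. On the array of control replicate 1, 8 of the 10 tubulins lay above their mean, with a median deviation of 0.16, and on that of control replicate 2 only 3 did, with a median of -0.12. Of the 10 genes, 5 had their highest value in control replicate 1 and 6 their lowest in control replicate 2. Control replicate 3 and the 3 Stau1 replicates had median deviations of -0.02, -0.02, -0.06 and 0.05. The extremes thus came from arrays of the same group, the control. Over all kept rows, between 49.3% and 50.7% lay above their own mean on each array. Quantile normalization gives every array the same distribution and so keeps these shares nearly equal by construction. They are therefore no yardstick for the 10 members, and rows of like brightness were not compared.

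**Figure D3:**
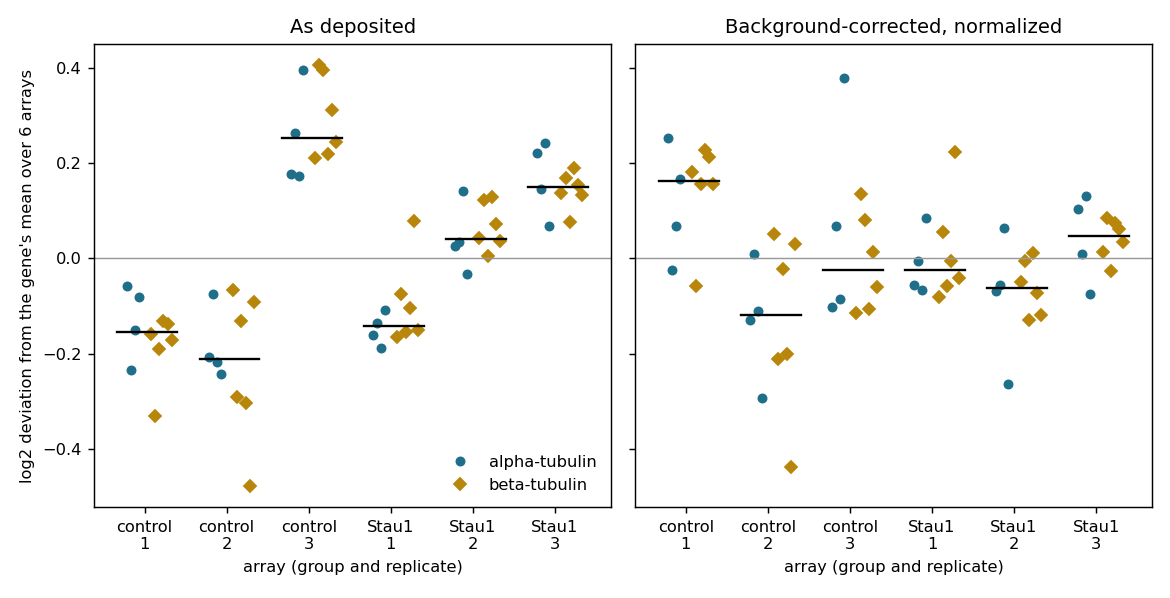
Deviation of each alpha-tubulin (circles) and beta-tubulin (diamonds) gene from its own mean over the 6 arrays in log2 units, for deposited intensities on the left and normalized ones on the right, with the median of the 10 genes on each array as a bar. After normalization control replicate 1 has the highest median (0.16) and control replicate 2 the lowest (-0.12), while the Stau1 replicates lie between -0.06 and 0.05.

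Without normalization the order of the arrays was another one. In raw log2 intensity the median deviation of the members was -0.15, -0.21 and 0.25 in control replicates 1 to 3 and -0.14, 0.04 and 0.15 in Stau1 replicates 1 to 3. The median of all kept rows deviated by -0.24, -0.11 and 0.26 and by -0.12, 0.12 and 0.11 on the same arrays. Most of the raw difference between arrays was therefore shared by the table as a whole, and control replicate 1 was the array where the tubulins stood highest above it. The part that RNA quality or labelling had in this was not tested.

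The spread inside the control group was the larger for 9 of the 10 members, the exception being TUBA1C, beside 68.4% of all kept rows (9091). The median SD over the members was 0.16 in the control samples and 0.06 in the Stau1 samples, and over all kept rows 0.17 and 0.12. The SD within groups was 0.12 in the median over the members, against 0.16 for all kept rows. Among the members it went from 0.04 for the bright row of TUBA1B to 0.27 for the dim row of TUBA4A. The members were not compared with rows of like brightness, so the lower median is no trait of tubulins as such.

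Each array carries many beads per probe, which gives a technical error inside the array. The 10 rows had between 28 and 85.5 beads per probe in the mean, and a standard error over beads of 1.95% (TUBB2C) to 5.83% (TUBA4A) of the intensity. For TUBA1B the SD between replicate arrays after normalization, 0.04, was 1.05 times the bead error on the log2 scale. Its raw log2 deviations ran from -0.23 to 0.26. Quantile normalization leaves rows as bright as this little room to differ, so the ratio holds only for an SD of normalized values. TUBB6 and TUBB2B followed at 1.58 and 1.89 times. At the other end TUBB3 had an SD of 0.26 against a bead error of 0.05, a ratio of 5.03, and TUBA4A a ratio of 3.87. Every member had an SD between arrays above its bead error as computed here. The bead error was taken on raw intensities with background included, and the SD on background-corrected, normalized values. For dim rows such as TUBA4A this makes the bead error too small beside the SD. The order of the ratios is therefore no ranking of the members by variation between arrays.

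**Figure D4:**
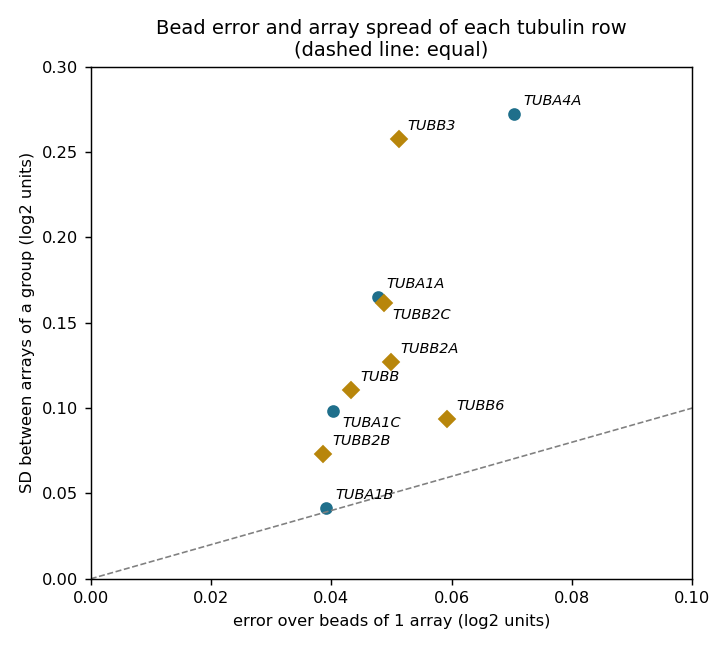
SD between replicate arrays of a group (log2 units) against the bead error inside an array (log2 units), 1 point per tubulin gene, with a line where they are equal. The SD is of corrected, normalized values and the bead error of raw intensities, so dim rows lie too far above the line. TUBA1B lies next to the line (1.05 times), and TUBB3 lies farthest above it (5.03 times).

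Ratios of near relatives within the same array remove only what an array does alike to both genes. Background correction and quantile normalization act by intensity, so rows of unlike brightness, such as TUBB2A and TUBB2B, can keep array effects in their ratio. The comparison took 4 pairs of neighbours chosen after the values had been seen, and each log2 ratio was centred on its mean over the 6 arrays. The ratio of TUBB2A to TUBB2B was -0.21, -0.19 and 0.05 in the control samples and 0.11, 0.12 and 0.11 with Stau1. The 3 Stau1 arrays were nearly equal (0.12 ± 0.01, SD, n = 3) and lay above all the control arrays (-0.12 ± 0.15). The difference was 0.23 log2 units after normalization and 0.19 in raw intensities. As the pair was chosen with these values in view, the difference is a description with no test. For the alpha-tubulins on chromosome 12 the groups overlapped in each pair: the differences were 0.02 for TUBA1A to TUBA1B, -0.10 for TUBA1A to TUBA1C and 0.12 for TUBA1C to TUBA1B.

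Tubulin genes have many near-identical copies, and reads of a probe can include such copies. The table held 11 rows that its own gene names call similar to a tubulin or a tubulin pseudogene, a set that was looked up after the members had been measured. Of these, 5 were detected on all 6 arrays, 3 on none, and 8 were kept, of which 0 passed the adjusted threshold. LOC647000, named as similar to beta-tubulin 5, had raw intensities from 6485 to 8111 and a change of -0.02 (SE 0.09). The alpha-tubulin pseudogene MGC16703 read 5518 to 11440 with a change of 0.24 (SE 0.12, limma adjusted p = 0.999). How far bright rows of this kind and the members read each other's transcripts was not tested, and each member's level is uncertain to that extent.

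The genes around the tubulins were examined in 9 lists of 103 symbols, of which 101 were in the table and 76 were kept. In limma, 0 of the 76 passed the adjusted threshold and 3 had an unadjusted p under 0.05, beside the 3.73% of all kept rows. That count of 3 was 7 without control replicate 3, 1 without control replicate 2, Stau1 replicate 2 or Stau1 replicate 3, 9 with array weights and 0 with median scaling. Their groups did not overlap for 11 of 76, beside 7.91% of all kept rows. Positive changes were seen for 35 and negative ones for 41, and the median change was -0.02.

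Among 12 kept genes of tubulin autoregulation and CCR4-NOT, 4 had a positive and 8 a negative change, with a median of -0.04. TTC5, the factor that recognizes nascent tubulin, read 9.58, 9.53 and 9.56 in the control samples and 9.48, 9.33 and 9.50 with Stau1, a change of -0.12 (SE 0.11). Its groups did not overlap, and it was named here for its role. SCAPER, the adaptor between TTC5 and the deadenylase and likewise named for its role, had a change of -0.04 (SE 0.18). The CCR4-NOT scaffold CNOT1 had a change of 0.13 (SE 0.10) and CNOT8, a deadenylase subunit, one of -0.14 (SE 0.12), both with groups that did not overlap. The limma adjusted p was 0.999 for each of these genes. Groups did not overlap for 3 of the 12 kept genes, beside 7.91% of all kept rows. For TTC5, CNOT1 and CNOT8 the unadjusted limma p was 0.284, 0.244 and 0.249.

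The chaperonin CCT, which folds tubulin, had 9 kept subunits with 5 positive and 4 negative changes, CCT2 at -0.09 (SE 0.08) and CCT4 at 0.12 (SE 0.13). All 5 kept subunits of prefoldin, which hands tubulin chains to CCT, had negative changes with a median of -0.04 and overlapping groups, PFDN4 at -0.21 (SE 0.19). The 7 genes listed as tubulin cofactors, not all of which assemble the dimer, divided 4 to 3, and TBCB, which binds alpha-tubulin, was at -0.15 (SE 0.10). Of the stathmins, which sequester dimers, STMN1 alone was kept, at -0.21 (SE 0.15), and it was detected on 5 arrays.

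Among the enzymes that modify tubulin, 8 of 15 had a positive change, TTLL5, a polyglutamylase, at 0.22 (SE 0.13) and TTLL12 at 0.16 (SE 0.10). The gamma-tubulin complex, which nucleates microtubules, had 3 positive and 4 negative changes, with the centrosomal CDK5RAP2 at 0.25 (SE 0.13). Of 14 other tubulins 7 were kept and 6 were detected on no array, and TUBB4, a class IV beta-tubulin, was at -0.25 (SE 0.15) with groups that did not overlap. The median of the other tubulins kept was -0.02, as for the members. Most of the kept ones are neither alpha- nor beta-tubulins: TUBD1, TUBE1, TUBG1 and TUBG2, named here for this reason, are delta-, epsilon- and gamma-tubulins. The like medians thus compare unlike families.

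Microtubule-associated proteins were the list with the widest changes. Of 13 kept, 8 had a positive and 5 a negative change, from -0.36 to 0.39, with a median of 0.13, and in 4 the groups did not overlap, beside 7.91% of all kept rows. MAP1S, a member of the MAP1 family, was at 0.39 (SE 0.16) and MAPRE3, a plus-end binding protein, at -0.36 (SE 0.14), both with a limma adjusted p of 0.999. CKAP5, a microtubule polymerase, named after its values had been seen as the remaining gene with an unadjusted p under 0.05, was at 0.24 (SE 0.10). These 3 genes did not share a direction.

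**Figure D5:**
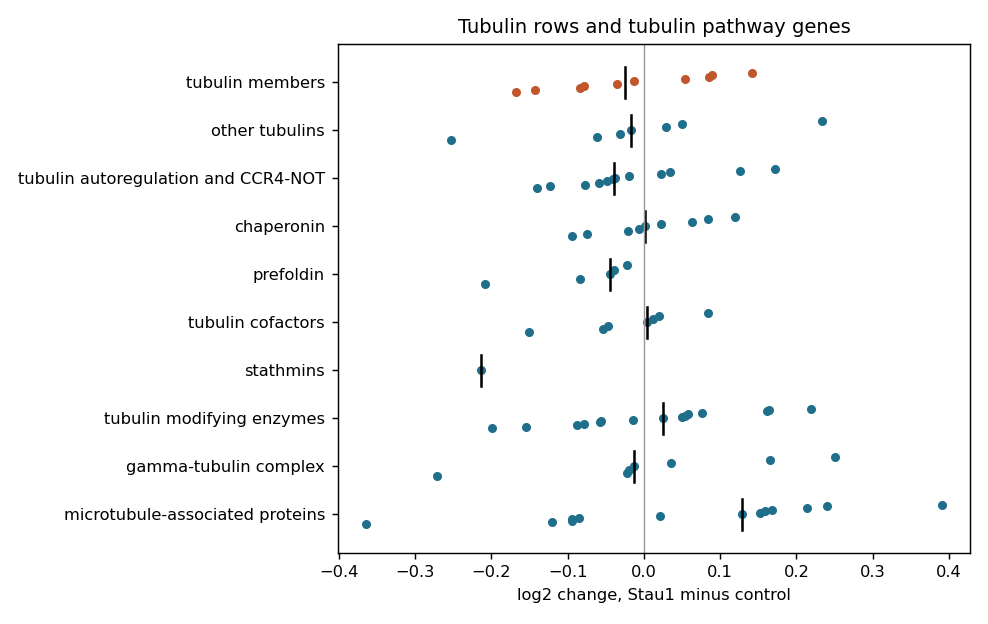
Log2 change (Stau1 minus control) of each kept gene, 1 row of points per list of tubulin-related genes with the median as a bar, and the 10 tubulins for comparison. The lists centre near 0 apart from the microtubule-associated proteins (median 0.13, from -0.36 to 0.39) and the stathmins, where the only kept gene is at -0.21.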

How the data were processed

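Total RNA of 6 samples was compared, 3 control and 3 Stau1, grouped by the transfection in their labels. The deposited table was exported by the authors from BeadStudio without normalization. Per the file headers it gives for each gene and array a signal intensity, a detection p-value against negative control beads, a standard error over beads and the mean number of beads. Each value column belonged to a sample. Whether the scanner software subtracted background is not given in the sources used here.

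Intensities were background-corrected in limma 3.58.1 (R 4.3.3) by normexp with an offset of 16. The background mean and SD came from 30932 rows that behave as single probes, by their detection p-values (whole steps of 1 in 759, tolerance 0.002 steps). Background means were 74.6 to 92.7 and SDs 15.2 to 18.2. The signal parameter of each array was set from the mean intensity of all 37879 rows less the background mean. Quantile normalization and log2 followed. A row was kept if its detection p was under 0.05 on 3 or more arrays. The groups were fitted with lmFit and eBayes with a variance trend, and p-values were adjusted by Benjamini-Hochberg over all 13285 kept rows. The limma fit alone was tested on simulated data with independent normal noise. That test left out background correction, normalization and effects shared by an array, and its outcome is not reported here. The t-test that the methods give for immunoprecipitated RNA was run on the same values, without its fold rule. Precision is limited by 3 arrays per group.

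The members and the gene lists were chosen with earlier results of these data known. The genes named were the members, STAU1 and, from each list, the gene with the lowest unadjusted p, or the 2 lowest in lists of over 8 kept rows, and further genes only where stated. The sequences are from the RefSeq promoter table, and no values of the study's immunoprecipitated RNA were used. Alternatives covered background, offset, normalization, filter, variance trend, array weights, replicate block and left-out arrays. Figures were drawn with matplotlib 3.10.9. 1 marker of other cells is not reported here.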

Additional observations from a re-analysis of the deposited data

How the results depend on the processing

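No tubulin passed the adjusted threshold in limma under any of the 10 alternatives with all arrays or when any array was left out. No member had an unadjusted p under 0.05 in limma either, except that 1, TUBA1C, did with array weights (change 0.153, adjusted p 0.509). Over all kept rows the count past the adjusted threshold was 0 under the alternatives with all arrays and ranged from 0 to 39 when 1 array was left out, of which 39 was the count without control replicate 3; its cause was not tested.

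The median change of the members turned sign: it went from -0.0242 to 0.0401 over the alternatives with all arrays, the latter with median scaling, which moved the median of all kept rows to 0.0679, and from -0.0582 without Stau1 replicate 3 to 0.0377 without control replicate 1. With median scaling the changes of TUBA1A, TUBA1B, TUBB and TUBB6 were 0.0541, 0.026, 0.00584 and 0.0056. Array weights, which were lowest for control replicate 1 (0.399) and highest for Stau1 replicate 3 (3.33), put TUBA1A at 0.0941. Stau1 replicate 3 was the highest of the Stau1 arrays for TUBA1A and for TUBA1C. With 1 array left out, TUBA1A ranged from -0.0817 to 0.107, TUBB2C from -0.0354 to 0.182 and TUBB3 from -0.0417 to 0.285, the last pair turning negative without control replicate 2. TUBB2B stayed negative, from -0.185 to -0.0553 with all arrays and from -0.19 to -0.0987 with 1 left out. TUBA4A ranged from -0.36 to -0.0203 with 1 array left out and was at -0.0105 with the background inferred from all rows, and the strict filter removed it, so no value could be given there.

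The replicate numbers were not read as pairs, since the deviations of same-numbered samples correlated at 0.0154, 0.26 and -0.139. With the replicate block, 0 members and 0 of all kept rows passed the adjusted threshold, and 604 of all kept rows had an unadjusted p under 0.05. That last count, 495 as reported, was 229 with median scaling, 1298 with array weights, 1564 with no filter, 317 with the strict filter and from 235 (without Stau1 replicate 3) to 1696 (without control replicate 3) with 1 array left out.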
